A study of Mus musculus with 2 samples.

Results

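Perforin, the pore-forming protein of natural killer (NK) cells, and 8 proteins that store it, carry it or release it were followed at the transcript level across the cells of a sorted mouse spleen preparation. The 9 genes, Prf1, Srgn, Lamp1, Stxbp2, Stx11, Unc13d, Rab27a, Cst7 and Nkg7, were matched by symbol among the 31053 genes of the count tables, and all 9 were found. The tables come from C57BL/6 mice carrying floxed alleles of the gene for the E-prostanoid 3 receptor (EP3, gene Ptger3). The control library is EP3F/F, and the knockout library is NKp46CreEP3F/F, in which Cre expressed with the NK receptor NKp46 (gene Ncr1) removes the floxed sequence in NK cells. Both therefore carry the floxed alleles, and the control is not recorded as carrying Cre. Each library holds the pooled NK cells of 2 mice, sorted from the spleen as positive for CD27 and CD11b. The labels give no age, sex or treatment of the mice.

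With 1 library per genotype there is no replicate check. No test is given, and the intervals below, at 95%, cover only counting error. The deposited control table held 69853026 unique molecular identifiers (UMIs) over 11785 barcodes, and the knockout table held 42795121 over 10615, with medians of 5641 and 3745 UMIs per barcode. Ptger3 had 13 UMIs in NK cells of the control and 0 in NK cells of the knockout, which checks the deletion only if the counted tags lie in removed sequence, and the labels do not say, and Ncr1 stood at 790 and 819 UMIs per 1000000 UMIs (CPM). The sort genes Cd27 and Itgam, the gene of CD11b, reached 137 and 154 CPM in control NK cells and 161 and 94.5 CPM in knockout NK cells. The libraries shared 33 barcode sequences, 23 of them in NK cells of both.

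NK cells and cytotoxic T cells kill by secreting lysosome-related granules into the contact with a target cell. Perforin (Prf1) opens the target membrane so that granzymes can enter. Serglycin (Srgn) is the proteoglycan that packs perforin and granzymes in the granule core. Lamp1 is a glycoprotein of the granule membrane whose appearance at the cell surface marks degranulation, and Nkg7 is a small membrane protein of the granules that is needed for efficient killing. Cystatin F (Cst7) inhibits the cathepsins that process granzymes and perforin. Rab27a docks granules at the plasma membrane, Munc13-4 (Unc13d) primes them, and syntaxin-11 (Stx11) with its partner Munc18-2 (Stxbp2) drives fusion. Loss of Prf1, Unc13d, Stx11, Stxbp2 or Rab27a in humans causes hemophagocytic lymphohistiocytosis, alone or as part of a wider syndrome.

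In the GRCm38 annotation of GENCODE, 3 of the 9 genes lie on chromosome 10: Prf1 at chr10:61297833-61304680 on the plus strand, Srgn at chr10:62493833-62527451 on the minus strand and Stx11 at chr10:12938209-12964298 on the minus strand. Lamp1 and Stxbp2 lie on chromosome 8, Unc13d on 11, Rab27a on 9, Cst7 on 2 and Nkg7 on 7. Promoter sequences of 8 of the 9 genes, with 10 transcript starts, were matched in RefSeq (GRCm38.p6). The 250 bases before each start were searched on both strands for 6 short motifs, chosen after expression values were known. A RUNX motif (TGTGGT) occurred in 6 of the 10 windows, against 14.0% of 32851 windows genome-wide. An ETS motif (GGAAGT) occurred in 4 of 10, against 19.7%, and a T-box half-site (GGTGTG) in 3 of 10, against 16.3%. A STAT motif (TTCNNNGAA) was found in 1 window, that of Nkg7, against 7.02% genome-wide. The cAMP response element TGACGTCA (1.55% of windows) and the AP-1 motif TGANTCA (6.75%) were found in 0 of 10. Matches of different motifs can share bases (TGTGGT with GGTGTG, for example), and a match is a description of letters, not of a bound site. The windows of Prf1 and Cst7, whose levels had like profiles across the cell groups below, and of Srgn, whose profile differed, are shown 5′ to 3′ on the strand of the gene, with RUNX and ETS matches of either strand in capitals. They lie at chr10:61297586-61297835 (plus strand), chr2:150570165-150570414 (plus) and chr10:62527446-62527695 (minus, the first of 2 listed starts).
Prf1: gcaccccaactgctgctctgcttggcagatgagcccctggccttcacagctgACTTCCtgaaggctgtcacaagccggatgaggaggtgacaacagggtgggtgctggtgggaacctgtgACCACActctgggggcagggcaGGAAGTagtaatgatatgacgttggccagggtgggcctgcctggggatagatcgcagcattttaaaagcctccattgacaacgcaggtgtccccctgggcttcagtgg
Cst7: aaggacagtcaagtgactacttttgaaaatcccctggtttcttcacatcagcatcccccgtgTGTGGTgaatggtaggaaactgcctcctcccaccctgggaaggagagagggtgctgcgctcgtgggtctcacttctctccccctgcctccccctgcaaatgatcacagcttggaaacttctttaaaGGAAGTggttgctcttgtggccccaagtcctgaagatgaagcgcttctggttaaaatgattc
Srgn: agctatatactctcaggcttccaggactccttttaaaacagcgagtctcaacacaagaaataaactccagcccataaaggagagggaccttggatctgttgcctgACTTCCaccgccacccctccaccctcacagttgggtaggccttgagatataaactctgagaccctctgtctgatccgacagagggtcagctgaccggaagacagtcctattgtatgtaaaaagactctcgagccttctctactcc
The Prf1 window holds 2 ETS matches and 1 RUNX match, the Cst7 window 1 of each, and this Srgn window 1 ETS match and 0 RUNX matches. The window of the other Srgn start, not shown, holds 1 RUNX match and 0 ETS matches, and so does that of Nkg7, whose profile was as like that of Prf1 as the profile of Cst7 was.

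Cells were gated on marker UMIs. NK cells, with 3 or more UMIs of Ncr1, Klrb1c, Klrk1, Klre1, Klri2 and Eomes, made up 10421 of 10928 control cells (95.4%) and 9144 of 10023 knockout cells (91.2%). Within them, 177 control and 51 knockout cells were chemokine-high (at least 0.5% of UMIs from Ccl3, Ccl4 and Xcl1), 79 and 57 were in an interferon response (UMIs of at least 4 interferon-stimulated genes), and 85 and 23 were dividing (at least 4 mitotic genes). The remaining cells were ranked by a maturation score, the mean of 10 mature markers such as Klrg1, Zeb2 and S1pr5 less the mean of 10 immature markers such as Cd27, Ltb and Tcf7, and cut into 3 tiers of 3312 or 3313 control cells and 2939 or 2940 knockout cells. No member is in the score. The tiers are ranges of a continuous score, not cell types: between 682 and 803 cells per library lay within 0.1 SD of each cut. ILC1-like cells, named for an innate lymphoid type related to NK cells, numbered 37 in the control and 91 in the knockout. They passed the NK gate with no Eomes UMI and UMIs of at least 3 of 8 genes such as Itga1, Il7r and Rora. Their lack of Eomes was thus set by the gate. T cell-like cells, with Cd3e and at least 2 more T cell genes, numbered 59 and 146. The 8 ILC1 genes summed to 1909 and 1955 CPM in ILC1-like cells and to 1348 and 1387 CPM in T cell-like cells. This list therefore separates the groups little.

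The level of Prf1 was highest in chemokine-high NK cells and lowest in T cell-like cells of both libraries. In the control library Prf1 stood at 952 CPM (898 to 1008) in chemokine-high cells, 720, 614 and 497 CPM in the most mature, middle and least mature tiers, 469 CPM in the interferon response, 413 CPM in dividing cells, 182 CPM in ILC1-like cells and 82.9 CPM in T cell-like cells. In the knockout library the same groups stood at 1451 CPM (1304 to 1610), 889, 677 and 522 CPM, 631 CPM, 469 CPM, 280 CPM and 102 CPM. Neighbours in this order whose counting intervals overlapped were, in the control, the least mature tier with the interferon response and the interferon response with dividing cells. In the knockout they were the middle tier with the interferon response and the least mature tier with dividing cells.

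**Figure D1:**
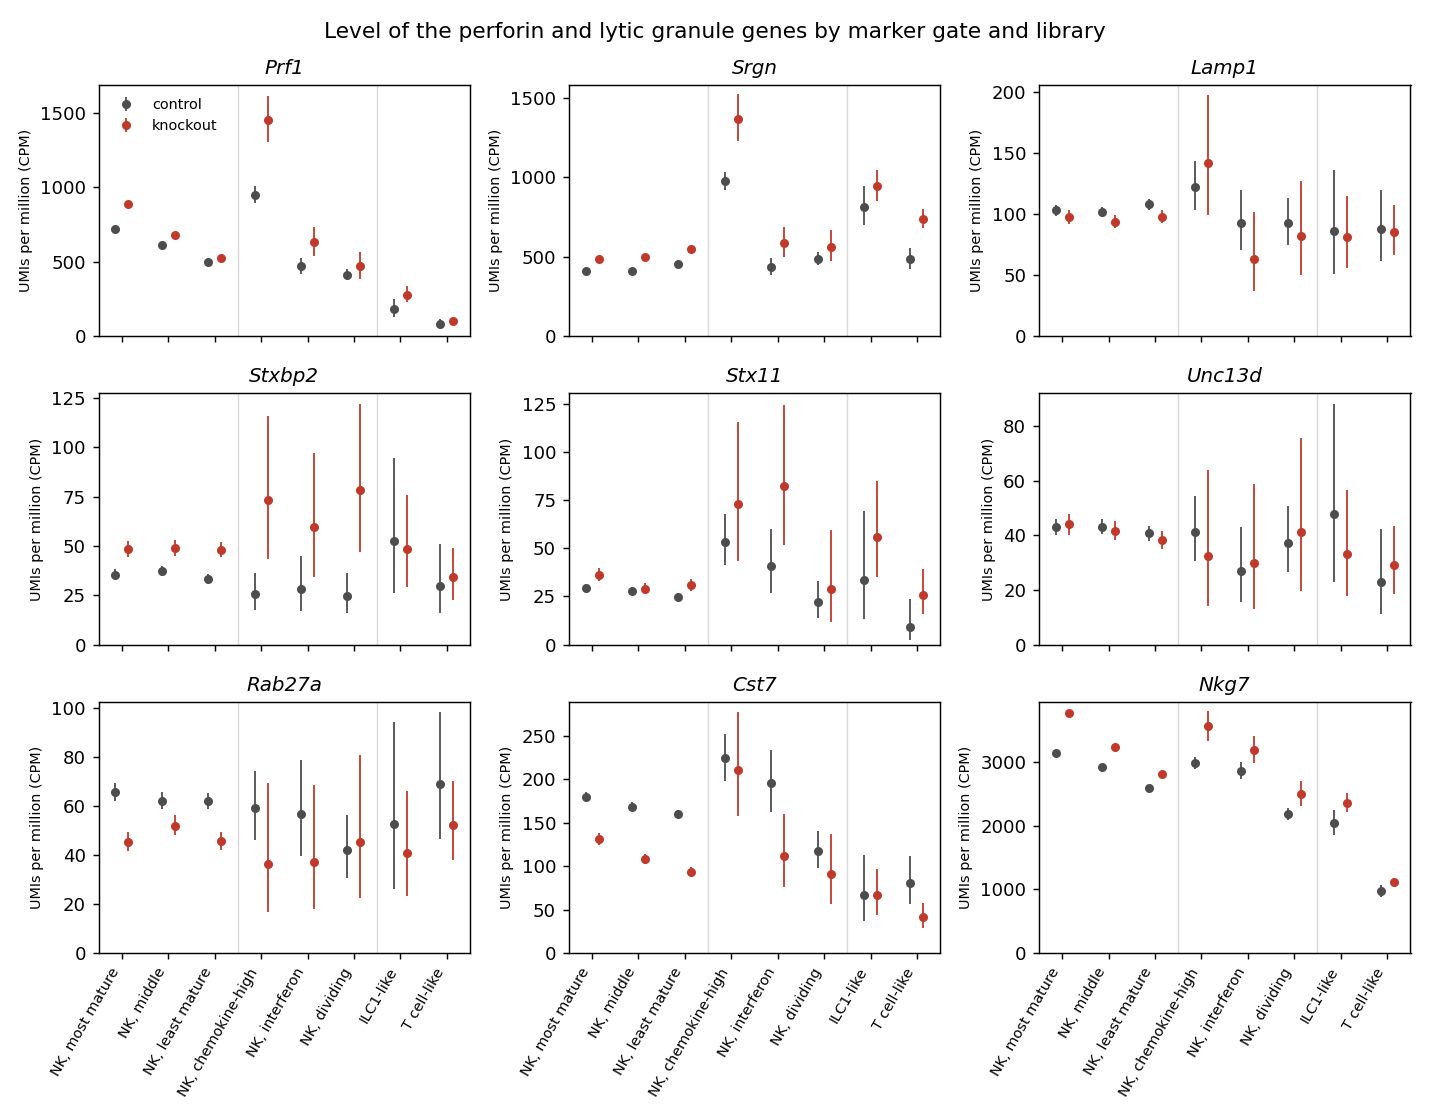
Level of each of the 9 genes in CPM (vertical axis, from 0) in 8 cell groups (horizontal axis) of the control (grey) and knockout (red) library. Points are the summed counts of a group, bars their exact 95% Poisson intervals for counting error. Prf1 runs from 1451 CPM in knockout chemokine-high cells to 82.9 CPM in control T cell-like cells, Srgn is highest in chemokine-high cells, and the 4 docking and fusion genes Rab27a, Unc13d, Stx11 and Stxbp2 stay at or under 82.2 CPM.

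Among the contents and membrane proteins of the granule, Srgn had another order. It was highest in chemokine-high cells, with 978 control CPM and 1370 knockout CPM, and next highest in ILC1-like cells, at 815 and 945 CPM. In the control the counting intervals of these groups overlapped, as did those of all neighbours among the groups below them. In the knockout the intervals of chemokine-high and ILC1-like cells stood apart from each other and from the rest. The tiers from most to least mature held 413, 409 and 453 CPM in the control and 484, 501 and 549 CPM in the knockout. T cell-like cells held 486 and 736 CPM of Srgn, against 437 and 518 CPM over all NK cells, although this group was lowest in Prf1. Interferon-response cells held 438 and 586 CPM of Srgn and dividing cells 489 and 564 CPM. Nkg7 stood at 3154, 2925 and 2598 CPM in the control tiers from most to least mature and at 3774, 3241 and 2820 CPM in the knockout tiers. Chemokine-high cells held 2984 and 3565 CPM of Nkg7, interferon-response cells 2868 and 3197 CPM, dividing cells 2185 and 2501 CPM, ILC1-like cells 2048 and 2367 CPM and T cell-like cells 970 and 1111 CPM. Lamp1, which lysosomes of many cell types carry, ranged from 86.3 CPM in ILC1-like to 122 CPM in chemokine-high cells of the control and from 63.5 CPM in the interferon response to 142 CPM in chemokine-high cells of the knockout. The intervals of every pair of neighbouring groups overlapped for Lamp1 in both libraries.

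Cst7, the cathepsin inhibitor, was highest in chemokine-high cells of both libraries, at 224 and 211 CPM. The control tiers held 180, 168 and 160 CPM from most to least mature, and the knockout tiers held 131, 108 and 93.7 CPM. ILC1-like cells had 67.1 and 66.3 CPM of Cst7, and T cell-like cells had 80.6 and 41.3 CPM. Interferon-response cells held 196 CPM (163 to 234) and 112 CPM, and dividing cells 117 and 90.5 CPM. In the control the interferon response came next after chemokine-high cells, and their counting intervals overlapped. Cst7 thus shared with Prf1 its highest group and its low levels in ILC1-like and T cell-like cells. It did not share the place of the control interferon response, which for Prf1 lay below the tiers.

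The 4 genes of docking, priming and fusion were counted at low levels. Over all NK cells, Rab27a stood at 62.7 CPM in the control and 47.9 CPM in the knockout, Unc13d at 42.0 and 41.1 CPM, Stxbp2 at 34.9 and 48.7 CPM and Stx11 at 27.8 and 32.6 CPM. Rab27a ranged from 42.0 CPM in dividing to 69.1 CPM in T cell-like cells of the control, and from 36.6 CPM in chemokine-high to 52.3 CPM in T cell-like cells of the knockout. Unc13d ranged from 23.0 to 48.0 CPM and from 29.2 to 44.0 CPM over the same groups. For Rab27a, Unc13d, Stxbp2 and Stx11, neighbours in the order overlapped within counting error in both libraries. Stx11 reached its highest levels in activated cells, 53.4 CPM in chemokine-high cells and 41.1 CPM in the interferon response of the control, and 73.2 and 82.2 CPM in the knockout.

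Droplets can hold free RNA of other cells, so Prf1 was also read in cells that should lack it. Macrophage-like cells with at most 1 NK marker UMI numbered 35 in the control and 133 in the knockout, with medians of 1200 and 1419 UMIs. Choosing them by few NK UMIs also favours barcodes with little free NK RNA, so their levels may understate it. They held 3 Prf1 UMIs in each library, which is 53.8 CPM (11.1 to 157) and 12.5 CPM (2.58 to 36.6). Nkg7 stood there at 197 and 83.5 CPM and Cst7 at 17.9 and 16.7 CPM. T cell-like cells held 82.9 CPM of Prf1 (58.1 to 115) and 102 CPM (81.4 to 126), and their level was not read as above or below free RNA. ILC1-like cells held 182 CPM (129 to 250, on 38 UMIs) and 280 CPM (230 to 338). The control interval overlapped that of the macrophage-like cells and the knockout interval did not. The part of free RNA in the ILC1-like ratios below was not tested. The same macrophage-like cells held Lamp1 at 986 and 1081 CPM and Srgn at 430 and 292 CPM, and both genes are known to be expressed by macrophages.

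At a fixed depth of 2000 UMIs per cell, 73.3% of control cells in the most mature tier and 59.5% in the least mature tier held a Prf1 UMI (95.7% and 91.0% before thinning). In the knockout these shares were 79.9% and 61.4% (93.4% and 82.8% before). Of T cell-like cells 13.6% (6.04 to 25.0) and 13.3% (8.19 to 20.0) did, at medians of 6705 and 5205 UMIs, and 37.3% and 25.3% before thinning. Of macrophage-like cells with few NK UMIs, 1 of 4 in the control (25.0%, 0.631 to 80.6) and 0 of 33 in the knockout did, the latter with an exact upper limit of 10.6%. Nkg7 was found in 99.4% and 98.4% of thinned control cells of the most and least mature tiers, so that its share of cells carried almost no contrast. Thinned NK cells held UMIs of 3.00 of the 9 genes on average in the control and 3.01 in the knockout, chemokine-high cells 3.45 and 3.67, and T cell-like cells 2.02 and 2.13. The 9 genes together took up 0.480% of the UMIs of thinned cells in the most mature control tier and 0.404% in the least mature, against 0.569% and 0.431% in the knockout.

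Maturation of NK cells is accompanied by a build-up of effector molecules, and the tiers of the score were set against each other within each library. All cells came from a sort for CD27 and CD11b, whose genes Cd27 and Itgam are both in the score. The tiers therefore divide that sorted window and need not span NK cell maturation. Prf1 was higher in the most than in the least mature tier, by a log2 ratio of 0.53 (0.50 to 0.57) in the control and 0.77 (0.72 to 0.81) in the knockout. Nkg7 was higher by 0.28 (0.26 to 0.30) and 0.42 (0.40 to 0.44). For Cst7 the log2 ratios were 0.17 (0.10 to 0.24) and 0.49 (0.38 to 0.60). Srgn went the other way, with -0.13 (-0.18 to -0.09) and -0.18 (-0.23 to -0.13). A gene was called higher or lower when its log2 ratio was at least 0.32 in size. By this bound 1 of the 9 genes was higher in the control (Prf1) and 0 lower, against 2.23% higher and 2.40% lower of 7320 measured genes. In the knockout 3 of 9 were higher (Prf1, Nkg7 and Cst7) and 0 lower, against 3.81% and 3.85% of 7246. The median over the 9 genes was 0.09 for the control and 0.20 for the knockout, against 0.02 and 0.01 over all measured genes. With 5 tiers in place of 3, 3 of 9 were higher in the control too, Nkg7 (0.36) and Stx11 (0.33) besides Prf1. Nkg7 in the knockout fell below the bound, to 0.31, when the score used mature markers alone. Of the marker lists of other cell types, the macrophage list stood at 6.08 and 4.63 CPM in the most and least mature control tiers and at 14.7 and 15.6 CPM in the knockout. The ILC1 list stood at 28.4 against 84.6 CPM and at 63.2 against 181 CPM, and the T cell list at 89.2 against 113 CPM and 106 against 159 CPM. The part of these lists in the ratios was not tested.

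**Figure D2:**
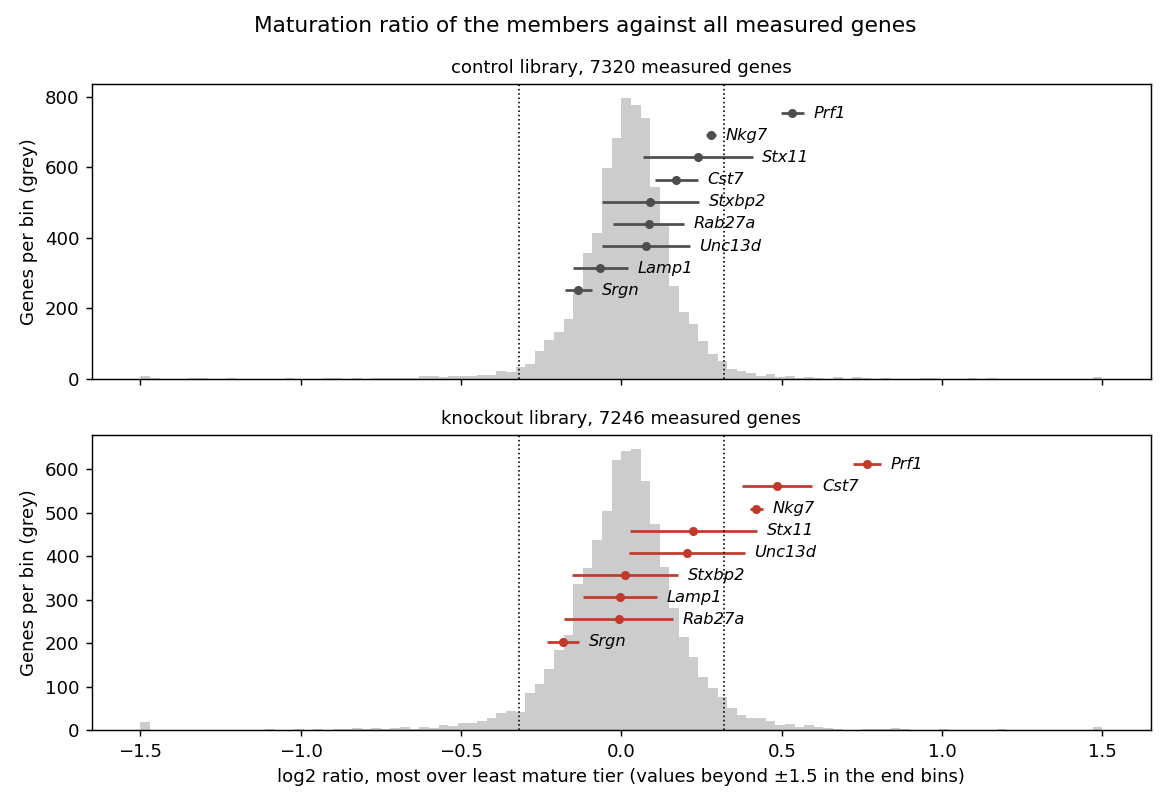
Log2 ratio of the most over the least mature tier (horizontal axis) of the 9 genes (points with 95% counting intervals, set at arbitrary heights) over the histogram of all measured genes (grey, genes per bin on the vertical axis), control above and knockout below. Dotted lines mark the bound of 0.32 in either direction. Prf1 lies at 0.53 and 0.77, outside the bulk of genes, and Srgn is the lowest of the 9 at -0.13 and -0.18.

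The change ran along the whole score. Over 10 equal bins of the score Prf1 went from 437 CPM in the least mature bin to 786 CPM in the most mature bin of the control, with 8 of 9 steps upward. In the knockout it went from 447 to 1039 CPM, with 9 of 9 steps upward. The libraries were close at the immature end and apart at the mature end. Score genes were standardised and bins cut within each library, so bins of the same number need not hold cells of like maturity. Nkg7 went from 2409 to 3319 CPM and from 2615 to 4107 CPM, with 9 of 9 steps upward in both. Cst7 went from 162 to 190 CPM (6 of 9 steps upward) and from 91.1 to 141 CPM (5 of 9). Srgn went from 470 to 421 CPM (2 of 9 upward) and from 574 to 495 CPM (3 of 9). Rab27a, with 57.2 to 72.6 CPM and 39.6 to 50.1 CPM in the end bins, and Unc13d, with 39.1 to 40.3 CPM and 40.1 to 43.4 CPM, took 4 to 6 of 9 steps upward, as did Stxbp2, Stx11 and Lamp1. The end bins of Stx11 held 22.5 and 33.6 CPM in the control, its lowest and highest levels there, and 32.8 and 35.9 CPM in the knockout.

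**Figure D3:**
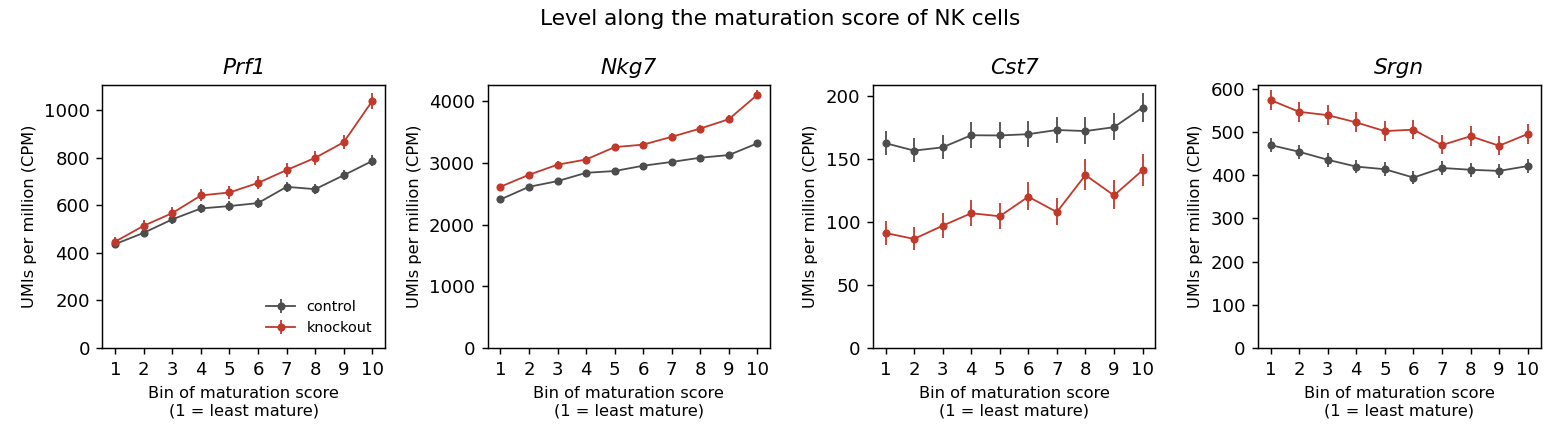
Level in CPM (vertical axis, from 0) of Prf1, Nkg7, Cst7 and Srgn in 10 bins of the maturation score of NK cells (horizontal axis, 1 is least mature), control in grey and knockout in red, with 95% counting intervals. The bins were cut within each library. The knockout line of Prf1 starts beside the control at 447 against 437 CPM and ends above it at 1039 against 786 CPM, while the Cst7 line of the knockout stays below that of the control throughout.

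Other granule genes were taken from a list of 14 cargo genes and a list of 36 genes of transport and fusion. Of 11 cargo genes measured in the control, 3 were higher (Gzma, Gzmb and Ctsc) and 2 lower (Gzmm and Lyst) in the most mature tier, with a median of 0.06. Members of these lists named for their count alone were chosen after their values were seen. Gzmb and Gzma had the largest ratios among the cargo genes that were higher: Gzmb stood at 379 against 168 CPM in the control (log2 ratio 1.17) and 434 against 146 CPM in the knockout (1.57), and Gzma had log2 ratios of 0.72 and 0.82. The cathepsin C gene Ctsc, whose product activates granzymes, was higher by 0.33 in the control. Lyst, a regulator of granule size, was lower in the most mature control tier by a log2 ratio of -0.68 (58.0 against 93.1 CPM). In the knockout 3 of 11 cargo genes were higher and 1 lower (Lyst, -1.01), with Ctsd at 0.36. Of 31 measured transport and fusion genes, 1 was higher (Sytl3) and 1 lower (Rab27b, -0.59) in the control, and 2 were higher (Sytl3 and Syt11) and 0 lower in the knockout. Sytl3, a synaptotagmin-like protein, had log2 ratios of 0.46 and 0.47. The transport and fusion counts are near the shares of all measured genes given above. Those were 2.23% higher and 2.40% lower in the control and 3.81% and 3.85% in the knockout. The cargo shares were larger, 27.3% higher and 18.2% lower in the control and 27.3% and 9.09% in the knockout. The cargo list was chosen with earlier results of these data known.

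Chemokine-high cells, which transcribe Ccl3, Ccl4 and Xcl1 as activated NK cells do, were compared with the 3 tiers together. The comparisons with chemokine-high, interferon, dividing, ILC1-like and T cell-like cells share these reference cells and so are not independent. Srgn was higher in chemokine-high cells by a log2 ratio of 1.20 (1.12 to 1.28) in the control and 1.42 (1.26 to 1.57) in the knockout. Prf1 was higher by 0.65 (0.57 to 0.74) and 1.07 (0.92 to 1.22), Stx11 by 0.97 (0.60 to 1.33) and 1.20 (0.44 to 1.86), and Cst7 by 0.41 (0.23 to 0.58) and 0.93 (0.51 to 1.33). The log2 ratio of Lamp1 was 0.23 (-0.02 to 0.46) and 0.56 (0.04 to 1.04). Nkg7, at 0.05 and 0.13 in chemokine-high cells, lay between the bounds. By the bound 4 of 9 genes were higher and 1 lower in the control, against 11.5% and 19.8% of 7223 measured genes. In the knockout 6 of 8 measured genes were higher and 1 lower, against 20.8% and 21.0% of 3213. Stxbp2, the lower gene of the control, had -0.45 (-1.0 to 0.06), but 0.044 in thinned cells, and 0.60 (-0.16 to 1.26) in the knockout. Rab27a had -0.10 (-0.45 to 0.24) in the control and -0.39 (-1.52 to 0.54) on 9 UMIs in the knockout. Of the cargo list, 3 of 11 and 4 of 9 measured genes were higher and 0 lower. These were Gzmb (0.71 and 1.28), the death ligand gene Fasl (0.71 and 0.61), the calreticulin gene Calr (0.47 and 0.83) and, in the knockout, Lyst (0.35). Of the transport and fusion list 2 of 31 were higher (Stx6 and Orai1) and 8 lower in the control, and 2 of 18 higher (Rab11a and Orai1) and 2 lower (Rab7 and Stx4a) in the knockout. The calcium channel gene Orai1, needed for granule release, was higher at 105 against 30.8 CPM (1.77) and 154 against 32.6 CPM (2.24).

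In the interferon response Stx11 passed the bound upward in both libraries, with log2 ratios of 0.59 (-0.02 to 1.15) in the control and 1.36 (0.68 to 1.97) in the knockout. Prf1 had -0.37 (-0.54 to -0.20) and -0.13 (-0.36 to 0.09), and the control value was -0.31 under median-of-ratios scaling and -0.25 in thinned cells. In the control 1 of 9 genes was higher and 2 lower, against 15.3% and 22.7% of 6145 measured genes. In the knockout 1 of 8 was higher and 2 lower, against 20.8% and 24.0% of 3446. The lower genes in the control were Prf1 and Unc13d (-0.65, -1.43 to 0.03), and in the knockout Lamp1 (-0.60, -1.39 to 0.08) and Rab27a (-0.36, -1.42 to 0.53, with -0.317 under median-of-ratios scaling). In these cells the ILC1 list summed to 111 and 138 CPM, against 52.3 and 113 CPM over all NK cells, and its part in the ratios was not tested. None of the members measured in thinned cells passed the bound, 0 of 5 in either library. Gzmb, of the cargo list, stood at 993 against 268 CPM in the control (1.89) and 1856 against 284 CPM in the knockout (2.71), while Prf1 was not higher in these cells. Cargo genes were higher in 4 of 11 (Gzmb, Gzmm, Lamp2 and Calr) and lower in 3 (Ctsc, Ctsd and Gusb) in the control. In the knockout 2 of 9 were higher (Gzmb and Lamp2) and 2 lower (Ctsc and Ctsd). Transport and fusion genes were higher in 2 of 31 (Stx4a and Klc1) and lower in 10, and higher in 7 of 22 and lower in 2 (Stx8 and Was) in the knockout.

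Dividing cells had less Prf1, by log2 ratios of -0.55 (-0.69 to -0.41) in the control and -0.56 (-0.84 to -0.29) in the knockout, and the knockout value was -0.26 in thinned cells. Nkg7 was lower by -0.40 (-0.46 to -0.34) and -0.38 (-0.50 to -0.27), with a control value of -0.319 under median-of-ratios scaling, and Cst7 had -0.52 (-0.79 to -0.27) and -0.29 (-0.96 to 0.31). Srgn had 0.20 (0.07 to 0.33) and 0.14 (-0.12 to 0.38), and in thinned cells 0.42 and 0.63. In the control 0 of 9 genes were higher and 5 lower, against 21.4% and 30.7% of 7421 measured genes, with Rab27a (-0.59, but -0.13 in thinned cells) and Stxbp2 (-0.51, -1.12 to 0.05, but 0.032 under stricter state gates) among the 5. In the knockout 1 of 8 was higher (Stxbp2) and 2 lower, against 29.6% and 29.0% of 3247. Cargo genes were lower in 4 of 12 and 4 of 8 cases, Gzmb, Ctsw and Fasl in both (Fasl at -0.67 and -1.33), Lyst in the control and Ctsd in the knockout. Gzmk was higher in both libraries (2.27 and 1.52) and Gzmm in the control (0.50). Transport and fusion genes were lower in 14 of 31 and 7 of 17, and 0 were higher in either library. Dividing cells had the deepest counts, with medians of 11668 and 11421 UMIs per cell, and the part of depth in these ratios was tested by thinning alone.

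ILC1-like cells had little Prf1, with log2 ratios against the tiers of -1.73 (-2.23 to -1.28) in the control and -1.30 (-1.58 to -1.03) in the knockout. Cst7 was lower by -1.33 (-2.20 to -0.58) and -0.74 (-1.35 to -0.19), and Nkg7 by -0.49 (-0.63 to -0.36) and -0.46 (-0.56 to -0.37). Srgn was higher, by 0.94 (0.71 to 1.16) and 0.88 (0.73 to 1.03). Stx11 was higher in the knockout, at 0.81 (0.13 to 1.42), and rested on 7 UMIs in the control. In the control 1 of 6 measured genes was higher and 3 lower, against 25.0% and 17.9% of 3110 measured genes, and in the knockout 2 of 9 were higher and 3 lower, against 17.8% and 18.5% of 4652. Among cargo genes Lyst was higher, at 259 against 74.3 CPM (1.80) and 117 against 48.0 CPM (1.29), and Gzma was lower by -1.85 and -1.72. Cargo genes were higher in 3 of 8 (Lyst, Ctsc and Calr) and lower in 3 (Gzma, Gzmb and Fasl) in the control, and higher in 1 of 9 (Lyst) and lower in 4 (Gzma, Gzmb, Ctsd and Lamp2) in the knockout. Transport and fusion genes were higher in 3 of 20 (Stx7, Stxbp3 and Coro1a) and lower in 6, and higher in 3 of 27 (Vamp2, Vamp4 and Kif5b) and lower in 6 in the knockout. The 9 T cell markers summed to 168 CPM in control ILC1-like cells, with Cd3e at 0, and to 426 CPM in knockout ILC1-like cells, with 8 of 9 detected, against 99.0 and 130 CPM in NK cells. MHC class II markers summed to 86.3 and 91.7 CPM against 12.4 and 23.4 CPM, and the part of either list in the ratios was not tested.

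T cell-like cells were lowest in Prf1, with log2 ratios of -2.87 (-3.38 to -2.40) in the control and -2.76 (-3.08 to -2.45) in the knockout. Nkg7 was lower by -1.57 (-1.71 to -1.43) and -1.55 (-1.65 to -1.46), and Cst7 by -1.07 (-1.59 to -0.59) and -1.42 (-1.95 to -0.93). Srgn had 0.19 (-0.01 to 0.39) and 0.52 (0.41 to 0.64), and Rab27a had 0.13 in both libraries. The direction for Rab27a turned under the stricter cell filter, to -0.16 and -0.21, and in knockout T cell-like cells with at most 1 NK UMI it was -0.33. By the bound 0 of 8 measured genes were higher and 4 lower in the control, against 16.2% and 35.5% of 5041 measured genes, and 1 of 9 was higher and 6 lower in the knockout, against 17.7% and 29.5% of 6760. The median of all measured genes was itself -0.15 in the control, and relative to it Prf1 stood at -2.72, Nkg7 at -1.42, Cst7 at -0.92 and Srgn at 0.34. NK markers summed to 1495 and 1586 CPM in these cells, against 5314 and 5469 CPM in NK cells. In the 18 control and 45 knockout T cell-like cells with at most 1 NK UMI, the log2 ratio of Prf1 was -3.61 and -4.54, that of Nkg7 -2.64 and -2.61, and that of Srgn 0.38 and 0.20. Choosing cells by few NK UMIs also favours barcodes with little free NK RNA. The lower Prf1 and Nkg7 of these few cells may thus be partly set by the choice, and no intervals are given for them. Stx11 (-0.32) and Unc13d (-0.50) of the knockout had -0.04 and -0.07 under the stricter cell filter. Cargo genes were lower in 7 of 10 and 8 of 11 cases with Gzma at -3.81 and -3.12. They were higher in 2 and 1, Lyst in both (1.43 and 1.49) and Gusb in the control. Transport and fusion genes were lower in 14 of 29 and 13 of 31 with Sytl3 at -1.91 and -1.86. They were higher in 2 (Syt11 and Stx6) and 4 (Arl8b, Stx6, Was and Orai1).

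The study asked how loss of EP3 bears on NK cell cytotoxicity, and the 2 libraries were set against each other in NK cells. Prf1 stood at 608 CPM (602 to 614) in the control and 693 CPM (685 to 702) in the knockout, a log2 ratio of knockout over control of 0.19. Srgn stood at 437 and 518 CPM (0.25), Nkg7 at 2872 and 3259 CPM (0.18), Stx11 at 27.8 and 32.6 CPM (0.23), Lamp1 at 105 and 96.7 CPM (-0.11) and Unc13d at 42.0 and 41.1 CPM (-0.03). These 6 genes lay between the bounds. Stxbp2 was higher in the knockout, with 48.7 against 34.9 CPM and a log2 ratio of 0.48 (0.39 to 0.57). Cst7, with 111 against 170 CPM, was lower by -0.61 (-0.66 to -0.56), and Rab27a, with 47.9 against 62.7 CPM, by -0.39 (-0.47 to -0.31). So 1 of 9 was higher and 2 lower, against 14.8% higher and 29.2% lower of 7332 measured genes, a spread in which 1 of 9 and 2 of 9 do not stand out. The median over the 9 genes was 0.18, and over all measured genes -0.07. Once each gene was compared with the 300 measured genes nearest in exon length, the log2 ratio was 0.05 for Prf1, 0.06 for Srgn and 0.00 for Nkg7, and it was 0.54 for Stxbp2, -0.83 for Cst7 and -0.37 for Rab27a.

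The markers of other lineages were higher in knockout than in control NK cells: the T cell list summed to 130 against 99.0 CPM, the ILC1 list to 113 against 52.3 CPM, the macrophage list to 15.1 against 6.22 CPM and the MHC class II list to 23.4 against 12.4 CPM. In the 5713 control and 5218 knockout NK cells without a UMI of the T cell, macrophage, MHC class II and platelet lists, the log2 ratios were 0.24 for Prf1, 0.43 for Stxbp2, -0.66 for Cst7 and -0.43 for Rab27a. The 2 libraries differ in depth, preparation and animals as well as genotype, and these cannot be told apart.

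The maturation tiers were cut within each library, so tiers of the same name need not hold cells of like maturity in both. Within the maturation tiers the log2 ratio of Prf1 was 0.07 (0.03 to 0.12) in the least mature, 0.14 (0.10 to 0.18) in the middle and 0.30 (0.27 to 0.34) in the most mature tier. In chemokine-high cells it was 0.61 (0.43 to 0.78), in the interferon response 0.43 (0.15 to 0.71), in dividing cells 0.18 (-0.13 to 0.48), in ILC1-like cells 0.62 (0.08 to 1.19) and in T cell-like cells 0.30 (-0.28 to 0.91). All 8 point values were above 0, and 3 of them passed the bound. The group values here, for every gene, were not set against genes of like exon length. Over all NK cells that step took Prf1 from 0.19 to 0.05. Nkg7 had 0.12, 0.15 and 0.26 in the tiers from least to most mature and between 0.16 and 0.26 in the other groups, and Srgn had between 0.21 and 0.60 in all 8. Cst7 was lower in each tier, by -0.77, -0.64 and -0.45 from least to most mature, and in T cell-like cells by -0.96 (-1.69 to -0.24). In the interferon response it stood at 112 CPM (75.6 to 160) in the knockout against 196 CPM (163 to 234) in the control. In dividing cells it stood at 90.5 CPM (56.7 to 137) against 117 CPM (97.6 to 140). Cst7 had -0.08 (-0.54 to 0.35) in chemokine-high and -0.02 (-1.01 to 1.03) in ILC1-like cells. Rab27a was lower in the least and most mature tiers, at -0.44 and -0.53, and had -0.26 in the middle tier. Stxbp2 was higher in every NK group, from 0.39 in the middle tier to 1.65 (0.72 to 2.56) in dividing cells, and had -0.12 and 0.18 in ILC1-like and T cell-like cells. Members past the bound numbered 1 higher and 2 lower in the most mature tier (15.2% and 30.6% of 7307 measured genes), 1 and 1 in the middle tier (15.0% and 29.6% of 7301), and 2 and 2 in the least mature tier (15.3% and 29.2% of 7331). Further counts were 4 higher and 1 lower of 8 measured members in chemokine-high cells (21.2% and 30.9% of 3317), 4 and 3 of 8 in the interferon response (21.9% and 32.9% of 3533) and 1 and 1 of 7 in dividing cells (24.1% and 30.1% of 3308). ILC1-like cells had 1 higher and 0 lower of 6 measured members (18.7% and 38.1% of 3023), and T cell-like cells 2 and 2 of 8 (24.7% and 31.5% of 4836). In ILC1-like cells the median of all measured genes was -0.13, and relative to it Prf1 stood at 0.76.

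**Figure D4:**
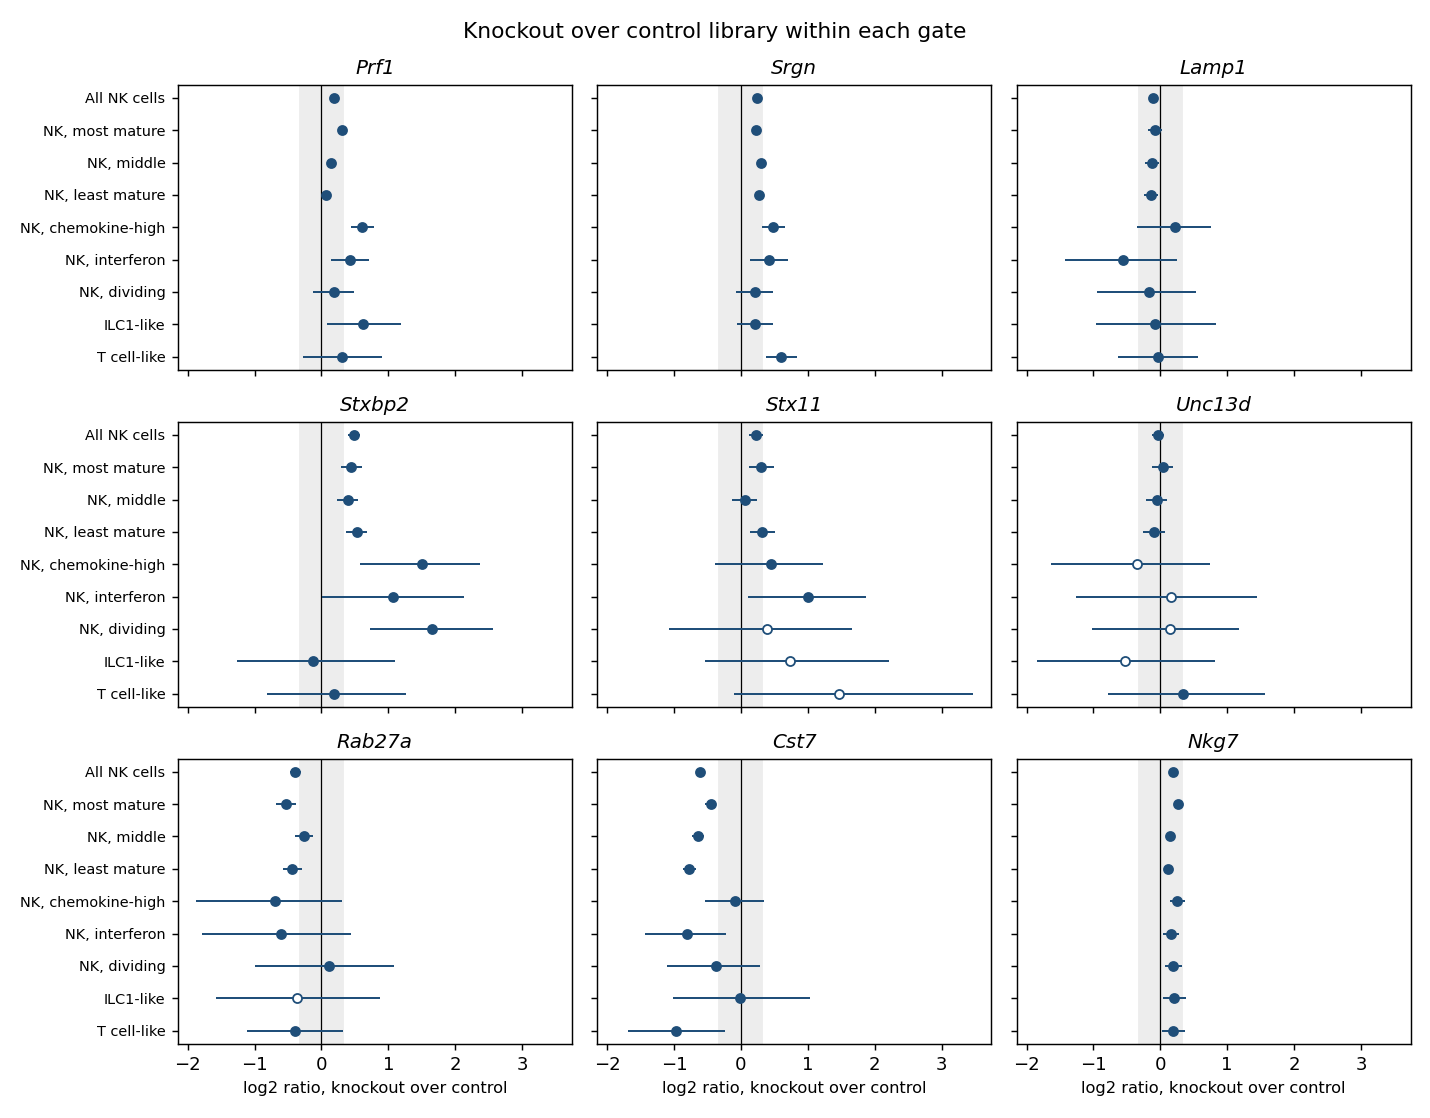
Log2 ratio of knockout over control (horizontal axis) for each of the 9 genes in all NK cells and in 8 cell groups (vertical axis), with exact 95% counting intervals. The shaded band spans -0.32 to 0.32 and open points mark values with too few counts to be called measured. Stxbp2 lies above 0 in all NK groups. Cst7 lies below 0 in the tiers, the interferon response and dividing cells, and near 0 in chemokine-high cells. The Prf1 points move right from the least to the most mature tier.

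The other granule genes were read against the 14.8% higher and 29.2% lower of all measured genes in knockout NK cells. Of 12 measured cargo genes 1 was higher (Gzmk, with 22.9 against 8.29 CPM and a log2 ratio of 1.46) and 2 lower, shares of 8.33% and 16.7%, with a median log2 ratio of 0.09. Lyst was lower by -0.61 (48.1 against 73.5 CPM) and Gzmm had 8.18 against 16.4 CPM. Of 31 measured transport and fusion genes 1 was higher (Rab27b, a close relative of Rab27a, at 33.2 against 17.6 CPM, 0.91) and 12 were lower, a share of 38.7% lower against 29.2% of all measured genes, with a median of -0.15. The granule tethering gene Sytl2 was lowest, at 39.3 against 78.1 CPM (-0.99), followed by the non-muscle myosin gene Myh9 at 192 against 359 CPM (-0.90) and Dock8, a regulator of actin at the synapse, at 74.2 against 113 CPM (-0.60). Sytl2 encodes a binding partner of Rab27a, and both were lower in this library, as were 29.2% of all measured genes. The comparison with genes of like exon length was not made for the genes of these lists.

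Profiles over the 8 cell groups in the 2 libraries, 16 points that share 2 libraries and unequal depths, were compared by Pearson's r of log2(CPM + 1) centred within library, as a description. Among the members, Nkg7 (0.94) and Cst7 (0.94) were most like Prf1, and Srgn (0.03) and Rab27a (-0.29) were least so. Of 2762 genes of at least 50 CPM, the 3 most like Prf1 were N4bp1 (0.98), Scimp (0.96) and Pfkp (0.96). Those most like Nkg7 were Tyrobp (0.98), Gsap (0.97) and Fcer1g (0.97), with Tyrobp and Fcer1g encoding signalling adaptors of NK receptors. Those most like Cst7 were Cap1 (0.94), N4bp1 (0.92) and Agpat3 (0.92). Srgn was most like Rel, which encodes an NF-kappaB subunit (0.87), Lcp1 (0.83) and Cd160 (0.83). From cell to cell within the tiers, the 36 pairs of members were hardly correlated at this depth: the highest r, of Prf1 with Nkg7, was 0.116 over 9937 control cells and 0.162 over 8818 knockout cells, and the median over pairs was 0.0067 and 0.0013.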

How the data were processed

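The authors deposited raw UMI counts per gene and barcode, with no normalization; every barcode holds at least 500 UMIs. Per the submitters' processing notes, Cell Ranger 3.0.0, STAR and Seurat were used with build GRCm39, and per the labels' protocols a Single Cell 3' v2 kit. GENCODE (GRCm38) gave positions and exon lengths, by ID for 30934 of 31053 genes. The members, gene lists and motifs were chosen with earlier results of these data known.

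Barcodes had to hold at least 500 genes and no more than 10% mitochondrial UMIs, which 10928 control and 10023 knockout barcodes did. No doublet caller was run; barcodes with UMIs of macrophage (5 or more), MHC class II (10 or more) or platelet (3 or more) genes, or over 1% haemoglobin UMIs, were gated out of NK cells. Raw UMIs were summed per gate and divided by their total (CPM). Levels carry exact Poisson, shares exact Clopper-Pearson and ratios exact conditional binomial intervals at 95%. A gene was measured in a comparison at a mean of at least 10 CPM and 10 expected UMIs in the smaller sum. The genes named by rule are the 9 members, up to 3 measured genes of at least 50 CPM per list and direction with the largest ratio, the 3 genes most like Prf1, Srgn, Nkg7 and Cst7, and Ptger3, Ncr1, Cd27 and Itgam. Further genes of the lists were named because they passed the bound, after their values were seen. Some of these lay under 50 CPM, such as Gzmk, Gzmm and Rab27b. The maturation score used cells thinned to 2000 UMIs, which left 143 control and 195 knockout NK cells unscored. On simulated Poisson counts for knockout over control, 100 of 100 genes changed 1.5-fold and 0 of 7175 unchanged genes passed the bound. The simulation held counting error alone, at the full totals of the libraries. It had no spread between animals or preparations and no small groups, so it gives no rate of false calls in these data. Software was matplotlib 3.10.9, scipy 1.17.1, pandas 2.3.3 and numpy 2.4.6 in Python 3.11.15. Other scalings, cell filters, gates, score cuts and thinning were tried.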

Additional observations from a re-analysis of the deposited data

Results flagged for a closer look

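Stxbp2, the fusion partner of syntaxin-11, had opposite signs in the 2 libraries in a pair of comparisons. In chemokine-high over other NK cells its log2 ratio was -0.45 (-1.0 to 0.06, 32 UMIs) in the control and 0.60 (-0.16 to 1.26, 18 UMIs) in the knockout. In dividing over other NK cells it was -0.51 (-1.12 to 0.05, 26 UMIs) in the control and 0.69 (-0.04 to 1.34, 19 UMIs) in the knockout. All 4 counting intervals hold 0, both comparisons of a library share the same reference cells, and the difference between the libraries was not tested.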

How the results depend on the processing

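Of 53 member values past the bound, recomputed under 305 alternatives in all, 303 kept their sign and 289 stayed past the bound. The exceptions in sign were both Stxbp2 in the control: 0.044 in chemokine-high cells when cells were thinned to 2000 UMIs, and 0.032 in dividing cells under stricter state gates. Some alternatives could move a value little or not at all. A minimum of 1 CPM changes only which genes count as measured, and median-of-ratios scaling shifts all genes of a comparison alike. The counts of 303 and 289 therefore overstate how hard the values were tried. Of 83 recomputed counts of members past the bound, 77 stayed within 1.5 times. With 5 score tiers in place of 3, 3 members passed in the control (1 otherwise). In chemokine-high cells of the knockout, 4 of 5 measured members passed both in thinned cells and under stricter gates (7 of 8 otherwise), and in the interferon response 0 of 5 measured members passed in thinned cells of either library (3 otherwise). In T cell-like cells of the knockout with at most 1 NK UMI, 4 of 6 measured members passed (7 of 9 otherwise). In each of these but the score tiers, fewer members had enough counts. Depth limits Unc13d, Stx11, Stxbp2 and Rab27a most, with 7 to 36 UMIs in many of the small groups. No paired analysis was possible because each genotype has 1 library.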
